A study of Mus musculus with 19 samples.

Results

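Chemokines are small secreted proteins that guide cells along concentration gradients, and their receptors are G protein-coupled receptors on the cell surface. The CC and CXC classes are named for the spacing of a pair of cysteines. In the thymus the Ccr9 receptor with its ligand Ccl25, Ccr7 with Ccl19 and Ccl21, and Ccr4 with Ccl17 and Ccl22 place developing T cells in cortex and medulla, while Cxcr4 and its ligand Cxcl12 hold early thymocytes in the cortex and blood cell precursors in the marrow. The members described here are the 53 of 23458 genes of the deposited table whose symbol is Ccl, Cxcl, Ccr or Cxcr followed by a number and at most 1 letter: 24 CC ligands, 12 CXC ligands, 10 CC receptors and 7 CXC receptors. Of these, 46 had enough counts to be tested: 29 of 36 ligands and 17 of 17 receptors. The 7 left out were Ccl1, Ccl19, Ccl21b, Ccl21c, Ccl26, Ccl27b and Ccl28, of which Ccl21b, Ccl21c, Ccl26, Ccl27b and Ccl28 had a count of 0 in the gene table in all 17 libraries. The deposited transcript table does hold estimated counts for Ccl21b, a multi-copy gene, 34.0 and 27.0 for 2 of its models in KO-ITD.

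The study sequenced polyA-selected RNA from C57BL/6 mice with leukemias of 2 kinds, retroviral and knock-in, that carry FLT3-ITD, and from their controls; FLT3-ITD is an internal tandem duplication that makes the receptor tyrosine kinase FLT3 active. In the retroviral model, transduced donor marrow was transplanted into lethally irradiated recipients and donor-derived CD4+CD8+ cells, which correspond to double-positive thymocytes, were sorted. Mx1-cre+ is in the genotype of all 4 groups, and the Dnmt3a+/+ donors serve as wild type (WT). The groups are leukemias of Mx1-cre+;Dnmt3a f/f donors given MSCV_FLT3-ITD-GFP (KO-ITD, n = 4), leukemias of Mx1-cre+;Dnmt3a+/+ donors given the same vector (WT-ITD, n = 3), thymocytes of Mx1-cre+;Dnmt3a f/f donors given MSCV_GFP (KO-GFP, n = 2) and thymocytes of Mx1-cre+;Dnmt3a+/+ donors given MSCV_GFP (WT-GFP, n = 2). Dnmt3a encodes a de novo DNA methyltransferase; Mx1-cre is driven by an interferon-inducible promoter that is active in blood cells and beyond. KO-ITD replicates 1 and 2 came from marrow and 3 and 4 from thymus; WT-ITD replicate 2 came from marrow and the other retroviral libraries from thymus. KO-ITD replicates 3 and 4 belong to later records, so within KO-ITD tissue and submission cannot be told apart, and thymus KO-ITD against KO-GFP is also a comparison across submissions. Donor cells were enriched for Sca-1 in KO-ITD, for Sca-1, ckit or not at all in WT-ITD and for ckit in KO-GFP, and the enrichment is not given for WT-GFP. The knock-in model gave bulk unsorted bone marrow with 1 Flt3 allele carrying the duplication: 1 leukemia of ER-cre+;Dnmt3a f/f;Flt3+/ITD (called f/f), 2 leukemias of ER-cre+;Dnmt3a f/+;Flt3+/ITD (f/+), and 3 pre-leukemic marrows of ER-cre-;Dnmt3a f/f;Flt3+/ITD, which lack Cre. The labels give no ages. They call the replicates biological without tying each to an animal, so the p-values reflect only how far these samples spread, which may be technical.

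Gene-level Dnmt3a counts include exons that the deletion leaves in place. Libraries held 4933890 to 25331908 estimated counts. Dnmt3a, the targeted gene, was at 53.0 to 126.7 counts per 1e+06 (CPM) in KO-ITD, 180.2 to 237.7 in WT-ITD, 144.2 and 207.1 in KO-GFP and 250.1 and 257.2 in WT-GFP; it was at 36.5 in f/f, 47.4 and 55.0 in f/+ and 129.6 to 153.5 in pre-leukemic marrow. All 10 markers of CD4+CD8+ thymocytes had counts in all 11 retroviral libraries, with summed levels of 2118 to 8013 CPM in KO-ITD, 6242 to 10421 in WT-ITD and 12557 to 14368 in the GFP groups. KO-ITD replicate 4 stood apart: 11 monocyte and macrophage markers summed to 4545 CPM, against 142 to 303 in the other KO-ITD libraries, and 14 markers of stroma and endothelium to 2824 CPM, against 278 to 1053. The ligands called in KO-ITD are given with and without this library. CPM values are scaled for library size, and a change is a log2 fold change with its standard error (SE). Calls are at an adjusted p below 0.05 (Benjamini-Hochberg, over 15508 genes) in the quasi-likelihood test of edgeR. Groups this small often do not overlap. Over all genes tested, 22.9% were higher and 21.8% lower in every library in KO-ITD against KO-GFP. In WT-ITD against WT-GFP these shares were 20.9% and 24.9%, and in KO-ITD against WT-ITD 4.85% and 6.24%. Against pre-leukemic marrow they were 22.7% and 20.9% in f/+ and 37.4% and 37.1% in f/f. A lack of overlap is therefore given as a description.

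Ccr9, the receptor for thymic Ccl25, was far lower in FLT3-ITD leukemias than in thymocytes given GFP. Its levels were 10.7, 10.9, 128.2 and 11.3 CPM in KO-ITD leukemias and 42.8, 59.2 and 138.7 CPM in the WT-ITD leukemias, against 1339 and 1157 CPM in KO-GFP and 1340.15 and 1375 CPM in WT-GFP thymocytes. The groups did not overlap, and the lowest of 4 GFP libraries was 8.34 times the highest of 7 leukemias. Per kilobase of exon, Ccr9 made up 51.0% of the summed receptor level in KO-GFP and 55.6% in WT-GFP and ranked first, while it made up 4.70% in KO-ITD and 10.1% in WT-ITD, where Cxcr4 was first by group mean. Its place differed between leukemias: in KO-ITD replicate 3 Ccr9 was next after Cxcr4, at 29.2 CPM per kilobase against 21.4 for Ccr4, while in WT-ITD replicates 1 and 2 it was behind Cxcr4 and Ccr4, and in WT-ITD replicate 3 behind Ccr7 as well. In KO-ITD against KO-GFP Ccr9 fell by 4.96 on the log2 scale (SE 0.98, edgeR adjusted p = 0.00719). The WT-ITD against WT-GFP change was -4.08 (SE 1.06) and missed the threshold in the fit of all groups (adjusted p = 0.0658), but passed it with the compared groups alone (0.0233) and with the libraries of the first submission (0.00188); in thymus libraries it was -3.90 with an adjusted p of 0.125. For KO-ITD, the first submission, with marrow leukemias, gave -6.86 (adjusted p = 0.000567) and the thymus libraries -4.16 (0.0380), whereas the compared groups alone gave 0.0646 and leaving out KO-GFP replicate 1 gave 0.0689. In such bulk samples fewer Ccr9-positive cells and less Ccr9 RNA per cell cannot be told apart. Among the markers of CD4+CD8+ thymocytes, Cd4, Cd8b1 and Cd8a were also called lower in KO-ITD against KO-GFP and Ptcra higher, and Cd4 was called lower in WT-ITD against WT-GFP; their part in the Ccr9 level was not tested.

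Between the leukemias, Ccr9 was not called: the change in KO-ITD over WT-ITD was -0.998 (SE 0.85, edgeR adjusted p = 0.518), and the libraries overlapped through KO-ITD replicate 3 at 128.2 CPM. Without that library the change was -2.87 (edgeR adjusted p = 0.0421), and in the first submission -2.92 (0.0312). Both fits leave out the library that overlapped, so their p-values follow from that choice. Without KO-ITD replicate 4 the change was -0.69 (0.717), and in thymus libraries -0.38 (0.837). The interaction of Dnmt3a deletion and FLT3-ITD was not called for Ccr9 either. In knock-in marrow Ccr9 was near the bottom of the scale, at 0.858 CPM in f/f, 0.0641 and 0.644 in f/+ and 6.76, 5.47 and 1.53 in pre-leukemic marrow. Its ligand Ccl25, made mainly by thymic epithelium, was at 2.29 to 4.45 CPM in KO-ITD, 3.31 to 5.65 in WT-ITD, 2.43 and 2.84 in KO-GFP and 2.64 and 2.76 in WT-GFP, and was not called in any comparison.

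**Figure D1:**
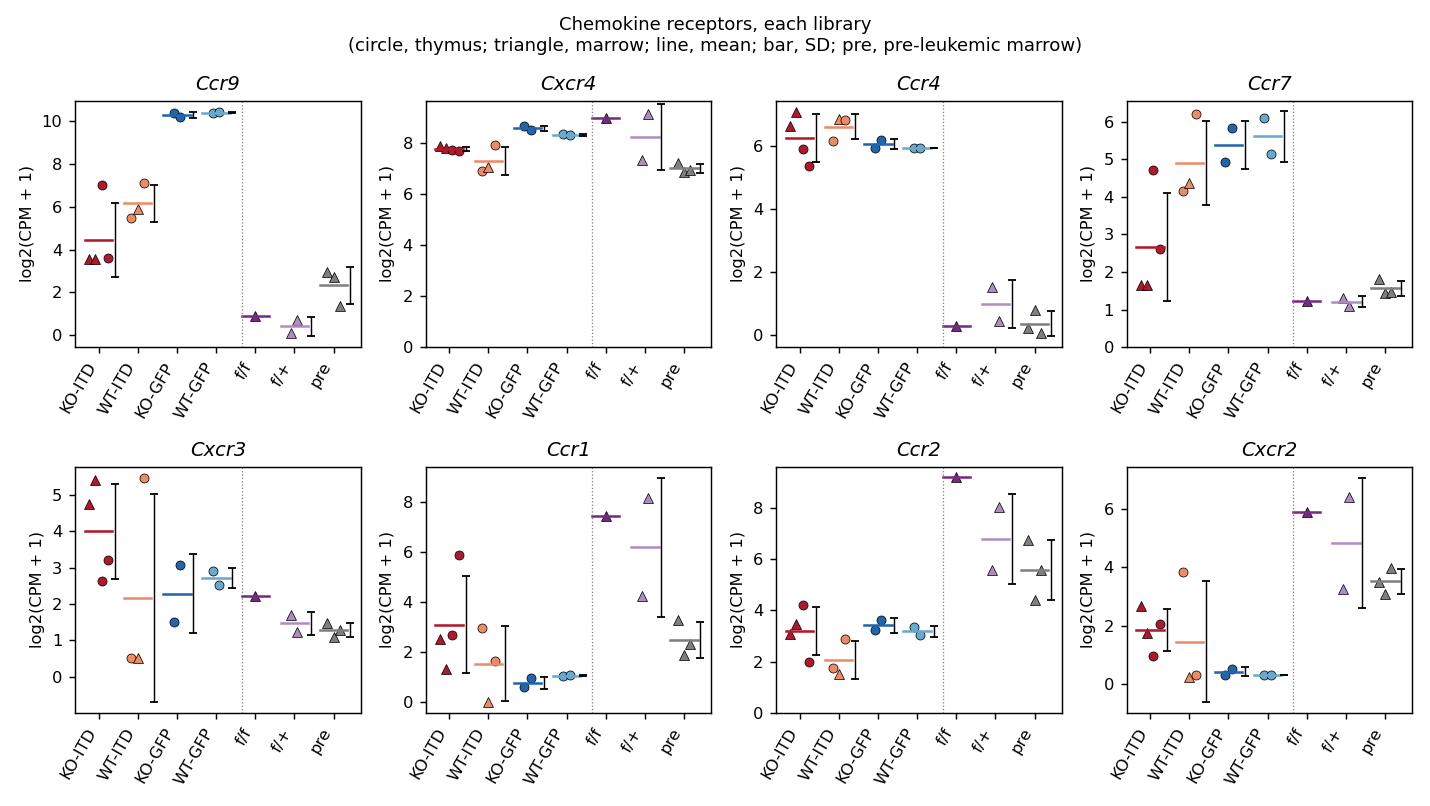
Levels of 8 chemokine receptors in each library, as log2(CPM + 1) on the vertical axis and the 7 groups on the horizontal axis; circles are thymus and triangles marrow, lines are group means and bars the SD. All 7 FLT3-ITD leukemias of the retroviral model lie below all 4 GFP libraries for Ccr9 (10.7 to 138.7 against 1157 to 1375 CPM), while for Ccr4 the KO-ITD and KO-GFP libraries overlap and all WT-ITD libraries lie above WT-GFP. Ccr1, Ccr2 and Cxcr2 are highest in the f/f leukemia and f/+ replicate 2.

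Ccr4, which binds the medullary chemokines Ccl17 and Ccl22, was not called in the same cells. The KO-ITD libraries had 98.4, 134.5, 59.5 and 40.2 CPM and the WT-ITD libraries 70.4, 115.0 and 112.3 CPM, against 60.8 and 71.8 CPM in KO-GFP and 60.3 and 60.1 CPM in WT-GFP. KO-ITD overlapped KO-GFP, with a change of 0.33 (SE 0.59) that was -0.41 in thymus libraries. All 3 WT-ITD libraries lay above both WT-GFP libraries, with a change of 0.72 (SE 0.63); neither change was called (edgeR adjusted p = 0.706 and 0.589). It was at most 1.86 CPM in every knock-in library. Ccr9 (chromosome 9, 123676329 to 123692575, plus strand) and Ccr4 (chromosome 9, 114399434 to 114405662, minus strand; deposited mm9 gene models) lie on the chromosome that carries 9 of the 17 receptor genes. Their promoter windows, 250 bases before to 50 after the start site, are shown because Ccr9 was called lower in KO-ITD and Ccr4, another receptor of these cells, was not called. The windows are RefSeq's on GRCm38.p6, chr9:123766961-123767260 (plus strand) and chr9:114496495-114496794 (minus strand), read 5′ to 3′, and capitals mark each CG dinucleotide, the sequence that Dnmt3a methylates; methylation was not analysed here.
Ccr9 promoter: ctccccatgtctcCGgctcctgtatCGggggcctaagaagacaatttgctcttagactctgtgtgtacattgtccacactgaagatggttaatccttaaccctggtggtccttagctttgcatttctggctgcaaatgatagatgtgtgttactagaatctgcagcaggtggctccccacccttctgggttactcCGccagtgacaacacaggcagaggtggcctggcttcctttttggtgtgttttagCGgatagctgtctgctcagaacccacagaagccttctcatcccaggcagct
Ccr4 promoter: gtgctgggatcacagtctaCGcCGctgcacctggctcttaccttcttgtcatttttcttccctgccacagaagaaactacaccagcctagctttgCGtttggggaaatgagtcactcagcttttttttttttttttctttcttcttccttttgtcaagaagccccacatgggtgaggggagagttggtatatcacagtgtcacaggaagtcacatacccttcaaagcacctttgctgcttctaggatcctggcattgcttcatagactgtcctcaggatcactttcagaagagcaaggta
The Ccr9 window held 4 CG and the Ccr4 window 3, against a median of 7 in 32851 promoter windows of the same length, of which 94.6% held at least 1. Each also held 2 copies of the E-box letters CANNTG, which 72.3% of all windows held.

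Cxcr4 was the highest receptor per kilobase in both leukemia groups, with 61.3% of the summed receptor level in KO-ITD and 50.4% in WT-ITD. KO-ITD libraries had 234.3, 219.4, 207.6 and 205.9 CPM and WT-ITD libraries 117.9, 132.6 and 244.0 CPM, against 398.9 and 358.3 CPM in KO-GFP and 325.2 and 313.3 CPM in WT-GFP. All leukemias lay below all GFP libraries. The changes of -0.80 (SE 0.37) in KO-ITD over KO-GFP and -0.95 (SE 0.40) in WT-ITD over WT-GFP were not called (edgeR adjusted p = 0.133 and 0.234). Of all genes tested, 21.8% and 24.9% were likewise lower in every library of these comparisons. Ccr7, which leads positively selected thymocytes to the medulla, was at 2.16, 2.14, 25.4 and 5.10 CPM in KO-ITD, against 29.5 and 56.1 CPM in KO-GFP. Replicate 3 alone came near the GFP libraries, and the change of -2.30 (SE 0.86) was not called (edgeR adjusted p = 0.0718). DESeq2 (-2.25, 0.0384), edgeR with replicate number as a block (-3.62, 0.0157) and the first submission (-4.32, 0.0118) called it lower. The compared groups alone (0.178) and the thymus libraries (-1.49, 0.252) did not. It was -3.78 (0.00550) without replicate 3, the library nearest KO-GFP, and -2.12 (0.121) without replicate 4. In WT-ITD Ccr7 was at 16.7, 19.5 and 72.6 CPM, which overlapped 67.6 and 34.2 CPM in WT-GFP.

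Cxcr6, a receptor of effector and innate-like T cells that binds Cxcl16, was the other receptor called. Its KO-ITD levels were 0.382, 0.220, 3.13 and 0.850 CPM, against 3.64 and 14.7 CPM in KO-GFP, with no overlap, and it fell by 3.02 on the log2 scale (SE 0.90, edgeR adjusted p = 0.0350). The call was lost without KO-ITD replicate 1 (0.0720), KO-ITD replicate 4 (0.0572), KO-GFP replicate 1 (0.109) or KO-GFP replicate 2 (0.325), and in thymus libraries (-2.21, 0.154). In WT-ITD it was at 1.87, 2.02 and 6.32 CPM, against 25.8 and 9.40 CPM in WT-GFP, and was not called (adjusted p = 0.220). Cxcr3, the receptor for the interferon-induced ligands Cxcl9, Cxcl10 and Cxcl11, split the leukemias within their groups. Levels were 25.8, 41.6, 5.17 and 8.25 CPM in KO-ITD and 0.443, 0.429 and 43.2 CPM in WT-ITD, against 1.85 and 7.34 CPM in KO-GFP and 6.48 and 4.70 CPM in WT-GFP. The 2 marrow KO-ITD libraries and WT-ITD replicate 3 were high. KO-ITD over WT-ITD was 0.46 (SE 1.22), not called (edgeR adjusted p = 0.865), and -1.70 in thymus libraries. It was 0.78 (0.786) without KO-ITD replicate 3, 0.72 (0.816) without KO-ITD replicate 4 and 5.49 (0.0178) without WT-ITD replicate 3. The last fit drops the high WT-ITD library, so its p-value follows from that choice and is not taken as a call. Cxcr5, the follicle-homing receptor for Cxcl13, was high in the same libraries, at 9.04 and 10.2 CPM in the marrow KO-ITD libraries and 11.9 CPM in WT-ITD replicate 3, and at most 4.69 CPM in the other leukemias.

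The rarer receptors were low throughout the retroviral model. Ccr3, known from eosinophils, was at 0.241 to 0.764 CPM in KO-ITD and 0 to 0.295 in WT-ITD, against 0.958 and 4.51 in KO-GFP and 3.40 and 1.74 in WT-GFP. Ccr8, found on thymic and regulatory T cells, was at most 0.722 CPM in any leukemia, against 1.98 and 5.12 in KO-GFP and 3.28 and 1.46 in WT-GFP. Neither was called in edgeR's fit (adjusted p = 0.0615 and 0.0751 in KO-ITD, 0.0857 and 0.254 in WT-ITD), though DESeq2 called Ccr3 lower in both.

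**Figure D2:**
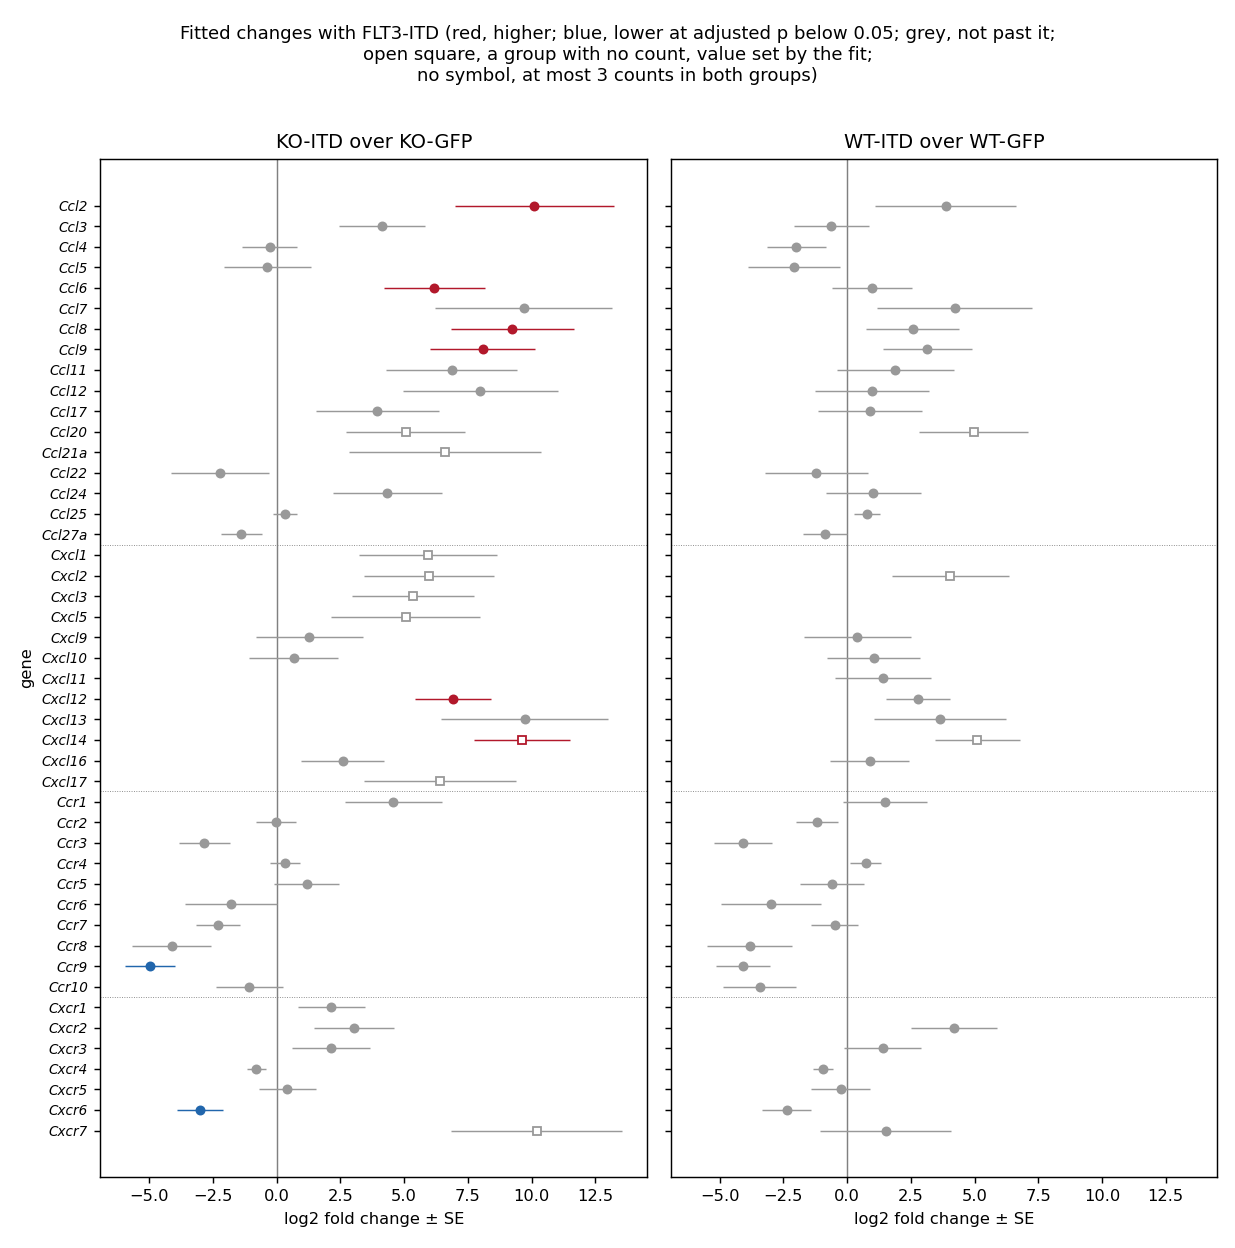
Fitted log2 fold changes with their SE for the tested members, KO-ITD over KO-GFP on the left and WT-ITD over WT-GFP on the right; colour marks calls at an adjusted p below 0.05, and open squares mark a group with no count, where the value is set by the fit. On the left 6 ligands are called higher and 2 receptors lower, Ccr9 at -4.96 and Cxcr6 at -3.02; on the right none is called, with Ccr9 at -4.08.

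Among the ligands, 6 were higher in KO-ITD leukemias than in KO-GFP thymocytes: Ccl2, Ccl6, Ccl8, Ccl9, Cxcl12 and Cxcl14. With Ccr9 and Cxcr6 lower, 8 of 46 tested members were called, or 4 of 17 CC ligands, 2 of 12 CXC ligands, 1 of 10 CC receptors and 1 of 7 CXC receptors. Over all genes 19.6% were called in this comparison, 9.8% higher and 9.85% lower, so the share of members called was near the background. The median change was 5.34 for the 29 ligands and -0.04 for the 17 receptors, against 0.19 over all genes tested. With ligands that had no count in 1 group set at their bound (3 counts over the group) the ligand median was 2.67, and such ligands passed the filter on low counts through other groups, so these medians are descriptions. Leaving out KO-GFP replicate 1 left no member called and leaving out KO-GFP replicate 2 left only Ccr9, with 147 and 918 genes called in all; the compared groups alone gave 0 members (356 genes in all). Without KO-ITD replicate 4, 5 members were called: Ccl8, Ccl9, Cxcl12 and Cxcl14 higher and Ccr9 lower.

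Ccl8, which in mice acts on Ccr8, was at 41.7, 8.85, 46.9 and 876.3 CPM in KO-ITD, against 0.383 and 0.405 CPM in KO-GFP. All 4 leukemias were above both controls, replicate 4 by far, and the fitted change was 9.24 (SE 2.41, edgeR adjusted p = 0.0204), or 6.33 (0.0184) without replicate 4. Ccl9 was at 19.2, 6.76, 34.3 and 443.8 CPM, against 0.575 and 0.355 CPM (8.08, SE 2.07, edgeR adjusted p = 0.0188; 5.42 and 0.0104 without replicate 4). Ccl6, which like Ccl9 is a rodent CC ligand of Ccr1 made by myeloid cells, was at 52.3, 19.6, 47.1 and 1138 CPM, against 1.98 and 6.63 CPM (6.18, SE 1.98, adjusted p = 0.0444; 3.19 and 0.0615 without replicate 4). Ccl2, the main attractant of Ccr2-bearing monocytes, was at 2.29, 0.275, 1.20 and 154.1 CPM, against 0 and 0.0506 CPM; the 1303 counts against 1 count are a ratio of 1083, with a 95% exact counting interval of 194.0 to 42789.6 that covers counting error only. Without replicate 4, which held all but 33 of those counts, the ratio was 34.0 (5.69 to 1383); it was 1882 without KO-ITD replicate 2, 603.8 without KO-GFP replicate 1 and at least 159.6 against the floor without KO-GFP replicate 2. Ccl2 was called with an edgeR adjusted p of 0.0394 (5.14 and 0.0514 without replicate 4). Its neighbours Ccl7 and Ccl12, also Ccr2 ligands, were at 119 and 121 CPM in KO-ITD replicate 4 and at most 1.68 CPM in the other KO-ITD libraries, and were not called (adjusted p = 0.0729 and 0.0812).

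Cxcl12, the Cxcr4 ligand of marrow and thymic stroma, was at 18.5, 8.85, 19.97 and 95.5 CPM in KO-ITD, against 0.383 and 0.203 CPM in KO-GFP. The 4 leukemias lay above both controls (6.91, SE 1.49, edgeR adjusted p = 0.00986; 5.73 and 0.00800 without replicate 4). Cxcl14, an epithelial and stromal chemokine, was at 3.95, 4.12, 1.20 and 15.9 CPM in KO-ITD and had no count in KO-GFP. That is at least 68.4-fold higher against a floor of 3 counts over the KO-GFP group (247 counts against 0, edgeR adjusted p = 0.00883, or 0.00744 without replicate 4). The bound was 39.8-fold without replicate 4, 38.2-fold without KO-GFP replicate 1 and 30.2-fold without KO-GFP replicate 2. Cxcl13, the follicular Cxcr5 ligand, was at 4.20, 2.64, 8.90 and 388.1 CPM in KO-ITD, against 0.0639 and 0.152 CPM, not called (adjusted p = 0.0554), and Cxcl16 at 4.84, 2.69, 5.41 and 68.9 CPM, against 3.32 and 3.44 CPM. Cxcl16 overlaps Zmynd15 on the opposite strand, and its level is uncertain because the sources do not say whether counting used strand.

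Markers of several other cell types were also higher in KO-ITD than in KO-GFP. The stroma and endothelium markers summed to 278 to 2824 CPM in KO-ITD, against 156 and 157 in KO-GFP, and 10 of the 12 tested were called higher, none lower; of the markers of thymic epithelium, Psmb11 was at 0 in all 4 KO-ITD libraries and Foxn1 in replicates 1 to 3. The monocyte and macrophage markers summed to 142 to 4545 CPM, against 67.7 and 89.3, with 10 of 11 or more detected in each KO-ITD library (Marco at 0 in replicate 1) and none called. Natural killer cell markers summed to 331 to 3148 CPM, against 77.6 and 90.3 (1 of 7 called higher), and erythroid markers to 333 to 1304 CPM, against 10.41 and 105.2 (6 of 7 called higher). Granulocyte markers summed to 1030, 259, 136 and 321 CPM in KO-ITD, against 12.5 and 58.3 in KO-GFP (1 of 12 called higher). Megakaryocyte markers summed to 9.04, 6.98, 3.49 and 29.2 CPM in KO-ITD, against 1.92 and 1.47 in KO-GFP. The B cell, dendritic cell and progenitor sums of KO-ITD overlapped those of KO-GFP. Replicate 4, where the called ligands were highest, was the highest KO-ITD library for the stroma, monocyte and megakaryocyte lists and the lowest for natural killer cells. It was not the highest for granulocytes, erythroid cells or the other lists. The part of these cell types in the ligand levels was not tested. Within the first submission, with KO-ITD replicates 1 and 2, Ccl9 (4.77, edgeR adjusted p = 0.0409), Cxcl12 (5.51, 0.0233) and Cxcl14 (0.0127) were called higher, while Ccl2, Ccl6 and Ccl8 were at 0.0706, 0.0927 and 0.0511; in the thymus libraries, which set KO-ITD of later records against KO-GFP of the first submission, all 6 were called, with adjusted p from 0.00934 to 0.0359.

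**Figure D3:**
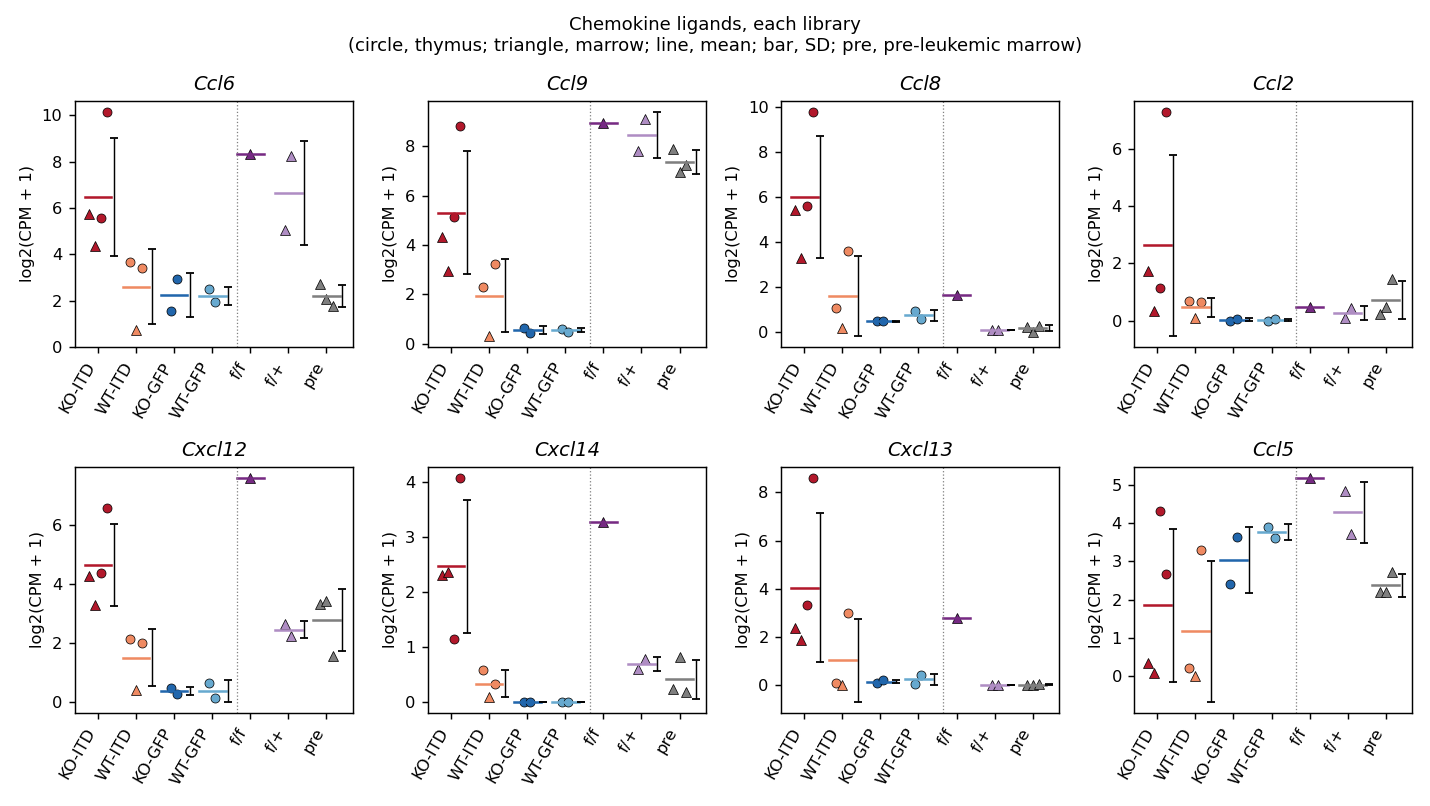
Levels of 8 chemokine ligands in each library, as log2(CPM + 1) on the vertical axis and the 7 groups on the horizontal axis; circles are thymus and triangles marrow, lines are group means and bars the SD. KO-ITD replicate 4, the topmost KO-ITD circle in all panels but Ccl5, reaches 1138 CPM for Ccl6 and 876.3 CPM for Ccl8. For Ccl5 the topmost KO-ITD circle is replicate 3, at 18.9 CPM. The other 3 KO-ITD libraries also lie above both GFP groups for Ccl6, Ccl8, Ccl9, Cxcl12 and Cxcl14.

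In wild-type leukemias, of 46 members none was called in WT-ITD against WT-GFP by edgeR, where 2.24% of all genes were (1.35% higher, 0.89% lower). DESeq2 called Ccr3 lower and Cxcr2 higher. Ccl8 was at 1.08, 0.123 and 11.2 CPM in WT-ITD, against 0.880 and 0.486 CPM in WT-GFP, and Ccl6 at 11.9, 0.674 and 9.58 CPM, against 4.60 and 2.84 CPM. WT-ITD replicate 2, from marrow, was below both controls for both ligands. Cxcl14 was at 0.492, 0.0613 and 0.246 CPM in WT-ITD and had no count in WT-GFP, at least 4.69-fold higher against the floor (2.33 to 6.33 without 1 library) but not called (adjusted p = 0.144). The medullary ligand Ccl22 was at 6.32 CPM in WT-ITD replicate 3 and at most 0.0492 CPM in the other WT-ITD libraries, against 7.04 and 2.84 CPM in WT-GFP; dendritic cell markers summed to 505 CPM in replicate 3 and to 10.9 and 0.735 in the others, and their part was not tested.

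Set against each other, KO-ITD and WT-ITD gave no called member by edgeR (0.49% of all genes were called, 0.206% higher and 0.284% lower). DESeq2 called Ccl3, Ccl8, Cxcl12 and Cxcl14 higher in KO-ITD. Cxcl12 was 8.85 to 95.5 CPM in KO-ITD, against 0.306 to 3.35 CPM in WT-ITD, without overlap (3.99, SE 1.03, edgeR adjusted p = 0.0989). Ccl6 was 19.6 to 1138 CPM, against 0.674 to 11.9 CPM (5.41, SE 1.57, edgeR adjusted p = 0.125), also without overlap. Of all genes tested, 4.85% were higher in every KO-ITD library than in every WT-ITD library. Ccl8 overlapped through KO-ITD replicate 2. Without KO-ITD replicate 2, Ccl6, Ccl8, Ccl9 and Cxcl12 were called (adjusted p from 0.0390 to 0.0491); that fit called 637 genes in all, against 76. The interaction of Dnmt3a deletion and FLT3-ITD asks whether the FLT3-ITD change differs with Dnmt3a. It gave no call among the members in edgeR (0% of all genes) or DESeq2. The edgeR adjusted p was 0.819 for each of Ccl8, Cxcl12, Ccl6 and Ccl3. KO-GFP against WT-GFP gave no call (0% of all genes) and no member with an unadjusted p below 0.05, nor a DESeq2 call.

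Many CC ligand genes lie in clusters, and 2 sub-clusters on chromosome 11 hold most of the ligands named above. Of the 53 members, 14 lie on chromosome 11, 10 on chromosome 5 and 9 on chromosome 9. The sub-cluster Ccl2, Ccl7, Ccl11, Ccl12 and Ccl8 (81849079 to 81930301, mm9) summed to 47.0, 10.1, 52.0 and 1286 CPM in KO-ITD and to 2.22, 0.184 and 14.9 CPM in WT-ITD, against 0.575 and 0.608 in KO-GFP and 1.28 and 0.810 in WT-GFP. In knock-in marrow the same genes summed to 2.84 CPM in f/f, 0.321 and 0.429 in f/+ and 0.356, 0.377 and 1.96 in pre-leukemic marrow. The sub-cluster Ccl5, Ccl9, Ccl6, Ccl3 and Ccl4 (83339281 to 83478185) summed to 28.3 to 1595 CPM in KO-ITD and 16.6, 0.919 and 27.4 CPM in WT-ITD, against 7.79 to 20.9 CPM in the GFP groups, which WT-ITD overlapped, and in the knock-in model to 851.7 CPM in f/f, 282.8 and 880.4 in f/+ and 250.3, 134.1 and 160.4 in pre-leukemic marrow. Knock-in libraries were thus high in the second sub-cluster and low in the first, and KO-ITD replicate 4 was high in both.

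Ccl9 and Ccl6, neighbours in the second sub-cluster, carry most of its counts in leukemias, and their promoter windows are shown for that reason beside that of Cxcl12. They are RefSeq's on GRCm38.p6, chr11:83578587-83578886 (minus strand), chr11:83593038-83593337 (minus strand) and chr6:117168285-117168584 (plus strand), 5′ to 3′, with CG in capitals.
Ccl9 promoter: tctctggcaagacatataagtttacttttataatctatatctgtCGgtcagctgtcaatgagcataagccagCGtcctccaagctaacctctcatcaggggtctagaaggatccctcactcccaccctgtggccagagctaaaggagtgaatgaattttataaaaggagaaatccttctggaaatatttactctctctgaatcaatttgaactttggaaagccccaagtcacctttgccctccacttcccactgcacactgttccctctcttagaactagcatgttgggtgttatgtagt
Ccl6 promoter: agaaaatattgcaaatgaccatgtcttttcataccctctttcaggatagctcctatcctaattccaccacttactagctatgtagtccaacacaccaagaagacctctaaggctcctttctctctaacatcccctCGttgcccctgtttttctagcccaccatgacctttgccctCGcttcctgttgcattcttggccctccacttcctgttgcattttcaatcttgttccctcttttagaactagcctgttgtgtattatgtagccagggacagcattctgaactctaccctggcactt
Cxcl12 promoter: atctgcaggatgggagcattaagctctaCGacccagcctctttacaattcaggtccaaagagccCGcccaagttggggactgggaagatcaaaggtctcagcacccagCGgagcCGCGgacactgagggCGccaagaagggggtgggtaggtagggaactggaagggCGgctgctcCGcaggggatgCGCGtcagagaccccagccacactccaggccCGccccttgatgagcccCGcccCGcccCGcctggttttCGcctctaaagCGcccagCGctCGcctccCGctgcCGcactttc
The windows of Ccl9 and Ccl6 held 2 CG each and that of Cxcl12 held 20. RefSeq windows were found for 37 of 53 members (44 windows, some of the same gene), with a median of 4 CG, against 7 over all windows. The letters TTCNNNGAA, bound by STAT factors, which FLT3-ITD activates, were in 3 of the 44 (6.82%), against 8.30% of all windows. CG, CANNTG and TTCNNNGAA read the same on both strands. A form of the NF-kappa-B motif, searched on both strands, was in 4 of the 44 (9.09%), those of Ccr3, Cxcl1, Cxcl2 and Cxcl3, against 0.411% of all windows; none of these genes was called by edgeR in any comparison. None of these matches is a measured site.

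**Figure D4:**
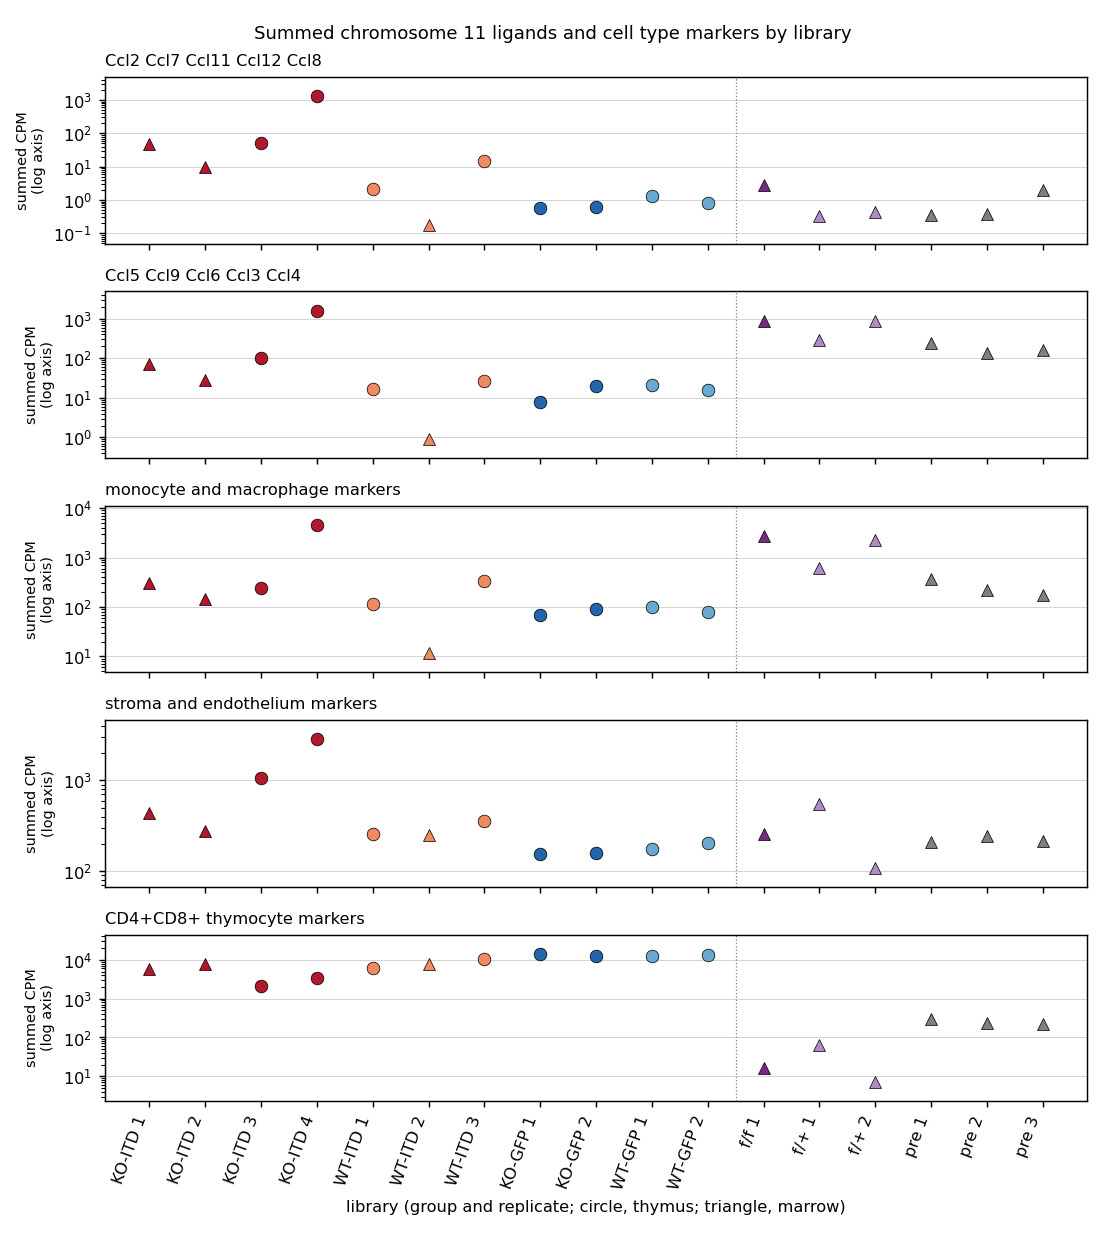
Summed CPM in each library, on log axes, of the chromosome 11 ligands Ccl2, Ccl7, Ccl11, Ccl12 and Ccl8, of the ligands Ccl5, Ccl9, Ccl6, Ccl3 and Ccl4, and of markers of monocytes and macrophages, stroma and endothelium, and CD4+CD8+ thymocytes. KO-ITD replicate 4 is highest in the first 4 panels (1286 and 1595 CPM for the ligands), and the knock-in libraries, right of the dotted line, are low in the first panel and between 134.1 and 880.4 CPM in the second.

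In the knock-in model, per kilobase, Ccl9, Ccl6 and Ccl5 led the ligands of f/f and f/+ marrow and Cxcr4, Ccr1 and Ccr2 the receptors, whereas pre-leukemic marrow had Ccl9 at 68.5% of its ligand sum. Cxcr4 was the 1 member called in f/f against pre-leukemic marrow (3.01% of all genes called, 2.11% higher and 0.903% lower): it was at 502.3 CPM in f/f, against 147.4, 116.1 and 122.7 CPM in pre-leukemic marrow (1.96, SE 0.47, edgeR adjusted p = 0.0428). The f/f group is 1 leukemia, assumed in the fit to vary like the other groups, and the adjusted p was 0.0969, 0.129 and 0.108 without pre-leukemic replicate 1, 2 or 3. In f/+ leukemias Cxcr4 was at 159.0 and 561.4 CPM, so that replicate 2 was near f/f and replicate 1 near pre-leukemic marrow; the change of 1.48 (SE 0.40) was just short of the threshold (adjusted p = 0.0506) and DESeq2 called it.

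Cxcr1, a neutrophil receptor for CXC ligands, was the 1 member called in f/+ against pre-leukemic marrow (5% of all genes called, 3.43% higher and 1.57% lower). It had no count in either f/+ leukemia, against 1.60, 2.64 and 0.936 CPM in pre-leukemic marrow, at least 12.9-fold lower against a floor of 3 counts over the f/+ group (edgeR adjusted p = 0.0294), or 6.09-fold without f/+ replicate 1, 6.79-fold without f/+ replicate 2 and 20.7-fold without pre-leukemic replicate 3. The f/f leukemia had 0.107 CPM. Leaving out any 1 of the 5 libraries gave an adjusted p of 0.0649 to 0.111, and the compared groups alone 0.0730. Cxcr2, its close relative and the main neutrophil chemokine receptor in mice, was at 58.9 CPM in f/f and 8.53 and 83.8 CPM in f/+, against 10.3, 7.54 and 14.7 CPM in pre-leukemic marrow, and was not called.

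Ccl6 varied widely in knock-in marrow, at 319.4 CPM in f/f and 32.4 and 300.2 CPM in f/+, against 5.51, 3.21 and 2.43 CPM in pre-leukemic marrow. All 3 leukemias were above all 3 pre-leukemic libraries, yet neither change was called (f/f 6.47, SE 1.86, edgeR adjusted p = 0.0773; f/+ 5.53, SE 1.70, adjusted p = 0.0720). Its receptor Ccr1 was at 172 CPM in f/f and 17.6 and 283 CPM in f/+, against 8.53, 2.64 and 3.96 CPM (adjusted p = 0.131 and 0.0918), and Ccl9 at 492.8 CPM in f/f and 219.4 and 551.0 CPM in f/+, against 238.0, 121.4 and 150.3 CPM. Ccr2, the receptor of classical monocytes, was at 596 CPM in f/f and 46.2 and 262 CPM in f/+, against 106, 20.2 and 47.1 CPM (3.37, SE 0.93, adjusted p = 0.0698 for f/f). In each of these f/+ replicate 1 was the lowest leukemia. Monocyte and macrophage markers summed to 2679 CPM in f/f and 626 and 2317 in f/+, against 362, 225 and 173 in pre-leukemic marrow, and granulocyte markers to 14709 CPM in f/f and 3649 and 18654 in f/+, against 4774, 4371 and 3172; their part in the member levels was not tested.

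Cxcl12 was higher in the f/f library than in the other knock-in libraries, at 194.7 CPM in f/f against 5.26 and 3.72 CPM in f/+ and 9.07, 9.80 and 1.96 CPM in pre-leukemic marrow. The change was 4.84 over pre-leukemic marrow (SE 1.22, edgeR adjusted p = 0.0509) and 5.44 over f/+ (SE 1.44, 0.497), and DESeq2 called both. Cxcl14 was at 8.63 CPM in f/f, against 0.513 and 0.716 in f/+ and 0.178, 0.754 and 0.128 in pre-leukemic marrow, and Cxcl13 at 5.90 CPM in f/f, with no count in f/+. Stroma and endothelium markers summed to 254 CPM in f/f, 544 and 110 in f/+ and 210 to 247 in pre-leukemic marrow. Their part in these ligand levels was not tested. No member was called in f/f against f/+ by edgeR (0% of all genes). In the transcript estimates for Cxcl12, the deposited 3173-base model took 67.9% of the Cxcl12 counts in f/f, 54.8% in f/+ and 59.1% in pre-leukemic marrow, and the 1878-base model took 76.0% in KO-ITD and 61.0% in WT-ITD. These shares are estimates pooled over each group and were not tested.

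**Figure D5:**
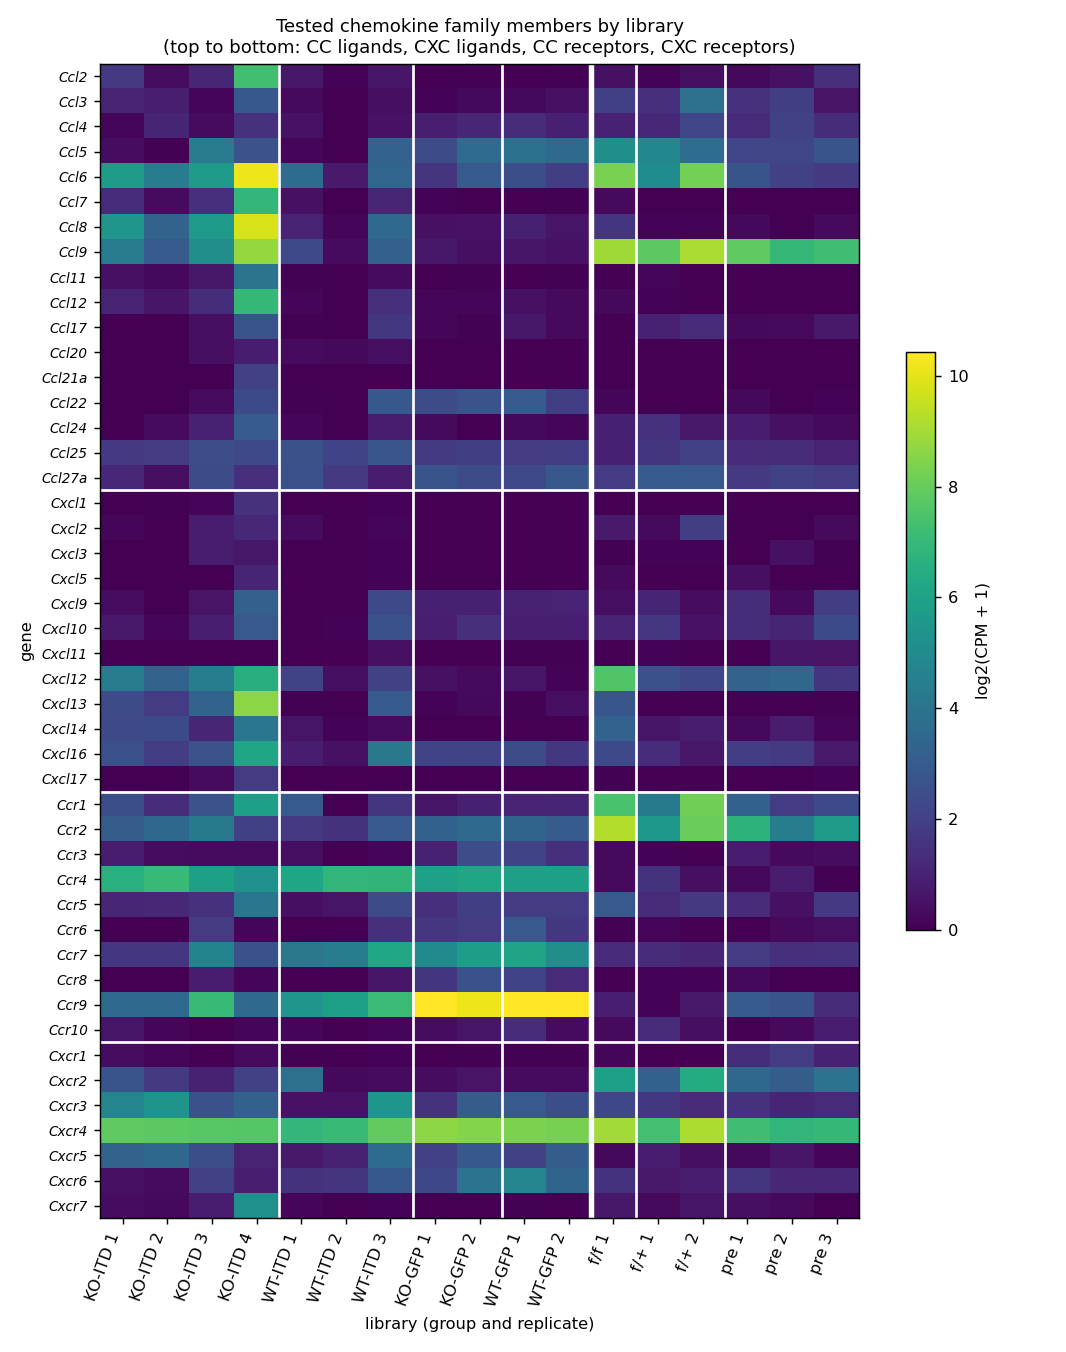
Level of the 46 tested members in each library as log2(CPM + 1), shown by colour, with genes in rows by class and libraries in columns by group. In GFP thymocytes Ccr9, Cxcr4, Ccr4 and Ccr7 are the brightest receptors, and in KO-ITD ligands are bright chiefly in replicate 4; in knock-in marrow Ccl9 and Cxcr4 are bright in all libraries, Ccl6 and Ccr1 are brighter in the 3 leukemias than in pre-leukemic marrow, and Ccr4 is dark.

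Other genes of the chemokine system were called at a share near that of all genes. In KO-ITD against KO-GFP, 14 of 60 tested genes on 4 lists were called (23.3%), 5 higher and 9 lower. Over all genes 19.6% were called, 9.8% higher and 9.85% lower. The counts for single lists are small and are given as descriptions. Of these, 4 of 10 tested other ligands and receptors were higher, among them Pf4, a platelet CXC chemokine, at 2.80, 2.42, 3.25 and 98.7 CPM against 0.128 and 0.0506 CPM (8.15, SE 2.14, edgeR adjusted p = 0.0209), and Ccrl2, an atypical receptor, at 2.80, 6.27, 6.25 and 7.16 CPM against 0.511 and 0.203 CPM (3.96, SE 0.87, adjusted p = 0.0104). Of 23 signalling genes 5 were lower and none higher. They included the kinase Ptk2b at 14.1, 23.0, 110 and 35.1 CPM against 264 and 202 CPM (-2.36, SE 0.56, adjusted p = 0.0146), the phospholipase Plcb2 (-1.29, 0.0475) and the Rac activator Dock2, which lymphocytes need to migrate to chemokines (-0.85, 0.0112). Of 14 desensitisation genes, Rgs14, a brake on G protein signalling, was lower (-1.37, 0.0238).

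Of 13 genes of migration and retention, Dpp4 was higher and Plxnd1, Cd69 and Itgal lower in KO-ITD, against 9.8% and 9.85% of all genes. Dpp4, a surface protease that trims chemokines such as Cxcl12, was at 403, 504, 512 and 261 CPM in KO-ITD and 488, 541 and 422 CPM in WT-ITD, against 161 and 155 CPM in KO-GFP and 153 and 174 CPM in WT-GFP. It rose in both, by 1.41 (SE 0.33, edgeR adjusted p = 0.0135) and 1.56 (SE 0.35, adjusted p = 0.0346). Plxnd1, a semaphorin receptor that guides thymocytes, was at 52.3, 190, 41.1 and 153 CPM in KO-ITD, against 1022 and 694 CPM in KO-GFP (-2.97, SE 0.51, adjusted p = 0.00367). In knock-in leukemias against pre-leukemic marrow, Coro1a, which organises actin in lymphocytes, and Itgb2, the beta chain of leukocyte integrins, were higher in both f/f and f/+, Itgb2 at 773 CPM in f/f and 91.5 and 836 CPM in f/+, against 62.2, 56.9 and 67.4 CPM. Rassf5 was also higher in f/f, and Rap1a, Arrb2 and Rgs14 in f/+; these are 3 of 60 in f/f (5%, against 3.01% of all genes) and 5 of 60 in f/+ (8.33%, against 5%). No gene of these 4 lists was lower there, and none was called in KO-ITD against WT-ITD, KO-GFP against WT-GFP, the interaction or f/f against f/+.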

How the data were processed

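The authors deposited estimated counts per gene and per transcript, not scaled for depth, for 17 libraries (19 GEO samples, since the technical runs of each WT-GFP library share 1 column). The submitters' processing notes name TopHat2 2.0.10, Cufflinks 2.1.1, build mm9 and Cuffdiff 2.1.1, or 2.2.1 in later records; "first submission" means records naming 2.1.1. Which step wrote the table, and any use of strand, the sources do not say, so overlapping genes (Ccl27a and Il11ra1, Cxcl16 and Zmynd15) and the near-identical Ccl21 and Ccl27 copies are uncertain. FPKM files of 9 libraries were not used.

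Of nonzero estimated counts, 98.12% to 98.54% per library were whole within 0.001; all were rounded. In R 4.3.3, edgeR 4.0.16 kept 15508 of 23458 genes (filterByExpr), scaled by TMM (0.943 to 1.076) and fitted its quasi-likelihood model to all libraries with 1 mean per group; contrasts were two-sided with Benjamini-Hochberg adjustment. CPM are counts per 1e+06 of scaled library size, and SE come from the F statistic. Fold bounds use 3 counts over a group and cover counting error only. The code of the fit was checked on counts simulated with the same dispersion for all genes. That run does not show how the calls hold at the spread of these libraries.

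The members and lists were chosen with earlier results of these data known. Named members were called in at least 1 comparison or reached a group mean of 20 CPM; from other lists, up to 3 genes called in each direction with at least 5 CPM on average in the higher of the 2 groups. Other members were named after their values were seen. Alternatives were DESeq2 1.42.0, its RLE scaling, no filter on low counts, the compared groups alone, a replicate block, the first submission, thymus libraries and leaving out each replicate. Gene coordinates are those of the deposited mm9 models, and promoter windows are RefSeq's on GRCm38.p6.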

Additional observations from a re-analysis of the deposited data

Results flagged for a closer look

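In the 4 KO-ITD libraries, 12 members had 1 library far from the other 3, judged by the gap to its nearest neighbour divided by the whole range and set against the critical value of Dixon's test. That critical value lets through about 1 of 20 groups of independent, normally distributed values. CPM are skewed and members high in the same library are not independent, so that rate does not apply here. The share of all genes with such a gap is not given, so the 12 are a description. Replicate 4 was the high library for 10 of them. Among CC ligands the ratio was 0.992 for Ccl12, 0.988 for Ccl7, 0.987 for Ccl2, 0.971 for Ccl6, 0.956 for Ccl8 and 0.937 for Ccl9. Among CXC ligands it was 0.984 for Cxcl13, 0.959 for Cxcl16 and 0.872 for Cxcl12, and for the receptor Ccr1 it was 0.933. Replicate 3 was the high library for the receptors Ccr9, with a ratio of 0.995, and Ccr7, with 0.873.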

How the results depend on the processing

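For the named members (called in at least 1 comparison or at a group mean of 20 CPM), no called value changed sign under any alternative run. Of their 1767 values that were not called, 85 changed sign, none of them called there. Among these were Ccr4 in KO-ITD against KO-GFP (-0.41 in thymus libraries) and Cxcl16 there (-0.27 with the replicate block). Others were Cxcr3 in KO-ITD against WT-ITD (-1.70 in thymus libraries) and Ccl12 in WT-ITD against WT-GFP (-1.09 with the block). Of the values for the named members, 1791 kept their side of the threshold, 43 lost it and 50 gained it. Other members, such as Ccr3 and Ccl3, which DESeq2 called, are not in these totals. The number of members called in KO-ITD against KO-GFP, 8, was 0 with the compared groups alone and 14 in thymus libraries, and 0 to 12 without 1 replicate; all genes gave 3047 calls, 356 with the compared groups alone and 5015 with DESeq2. For WT-ITD against WT-GFP, 0 became 2 with DESeq2, 1 with the compared groups, 3 with the replicate block and 1 in the first submission. For KO-ITD against WT-ITD, 0 became 4 with DESeq2, 1 with the block and 1 in the first submission, and 0 to 4 without 1 replicate (all genes 0.49%, and 8.31% with DESeq2). For f/+ against pre-leukemic marrow, 1 became 0 with the compared groups and 2 with the block, and 0 to 1 without 1 replicate. For f/f against pre-leukemic marrow, 1 became 4 with DESeq2, 11 with the compared groups and 3 with the block, and 0 without any 1 replicate, where all genes gave 3.01% called, 11.7% with DESeq2, 23.5% with the compared groups and 3.5% with the block; f/f against f/+ went to 1 with DESeq2. The cause was not tested.

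Replicate numbers are shared between groups, and the labels do not say whether they mark pairs or batches. Correlations of same-numbered deviations were 0.159, 0.369 and 0.0817 between KO-ITD and WT-ITD and -0.0367 and -0.163 between KO-ITD and KO-GFP. Between WT-ITD and WT-GFP they were -0.0569 and 0.174. In groups of 2 libraries the deviations mirror each other, so these values cannot settle whether the samples are paired. The block gave 11 calls in KO-ITD against KO-GFP. DESeq2 gave no adjusted p for 16 members there, among them Ccr9, Ccl2, Ccl6 and Ccl9, which edgeR called. Groups of 1 to 4 libraries limit every comparison, and where an arm kept 1 library it was assumed to vary like the other groups. At these depths, changes of members at a few counts were not detectable.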
